A study of Mus musculus with 2 samples.

Results

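Messenger RNA of 8 transcription factor genes, Sox1, Sox2, Sox3, Sox4, Sox11, Sox17, Zic2 and Zic5, was followed through single cells of mouse gastruloids. A gastruloid is an aggregate of embryonic stem cells that begins to lay down a body axis in culture. The 8 genes were taken by symbol from the 32285 genes listed in the deposited counts, of which 22549 had a molecule in a cell. The aggregates were seeded with about 300 cells of the mouse R1 embryonic stem cell line, the unmodified line (WT) or a double knockout (dko) of the zinc finger factor genes Sp5 and Sp8. Both received 3 µM CHIR, an inhibitor of the kinase GSK3 that turns on Wnt signalling, from day 2 for 12 hours in serum-free medium, and the aggregates were pooled before dissociation at day 2.5. Each genotype gave 1 library, called here the WT-labelled and the dko-labelled library, so there was no replicate, no test was made, and every interval below is a 95% interval that covers counting error only. How many mutant clones the double knockout stands for is not given in the sources used here.

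SOX proteins bind DNA through an HMG box and act with partner factors. In the epiblast, the pluripotent layer that forms the embryo proper, SOX2 acts with the POU factor OCT4. Of the SOXB1 group (Sox1, Sox2 and Sox3), Sox2 and Sox3 are kept on where the epiblast becomes neural plate. They are shut down in the primitive streak, where cells become mesoderm and endoderm. Sox4 and Sox11 belong to the SOXC group, best known in neural and mesenchymal progenitors, and Sox17 of the SOXF group specifies endoderm. Zic2 and Zic5 encode zinc finger factors that are active in epiblast and neural plate. T (Brachyury) and Eomes are T-box genes of the primitive streak, and Irx3 is an Iroquois homeobox gene of the neural plate.

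Cells were barcodes with at least 2500 unique molecular identifiers (UMIs, tags that count each captured molecule once), at least 1000 genes and at most 10% mitochondrial UMIs. There were 8707 in the WT-labelled library and 10587 in the dko-labelled library, with medians of 10571 and 8637 UMIs per cell and 97157331 and 97644169 UMIs in all. The cell lists shared 27 barcodes, against 13.6 expected from the number of possible barcodes. Sp5 stood at 109.1 CPM (UMIs of a gene per 1000000 UMIs) in the WT-labelled library and 478.7 in the dko-labelled library, and Sp8 at 20.8 and 40.1. These targeted genes were therefore higher, not lower, in the dko-labelled library, which goes against its label unless the mutant alleles still give a counted transcript. Which parts of the genes were deleted is not given in the sources used here, and directions below refer to the libraries as labelled. Markers of primed epiblast (Fgf5, Otx2, Pou3f1, Dnmt3a, Dnmt3b, Fgf15 and Utf1) were all detected in the 3 clusters of cells that held most of both libraries. They were also all detected in the naive-like and neural-like clusters described below, so this detection does not set the larger clusters apart.

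In the GENCODE M21 annotation of GRCm38, all 8 genes are protein-coding, and 5 of them (Sox1, Sox2, Sox3, Sox4 and Sox11) have a single exon. Sox2 (ENSMUSG00000074637) lies on the plus strand at chr3:34650405-34652461, inside the longer transcript Sox2ot of the same strand. Sox1 (ENSMUSG00000096014) lies on the plus strand at chr8:12395295-12400126 and overlaps Sox1ot of the same strand. These partners held few molecules: Sox2ot had 78 UMIs in the WT-labelled library and 44 in the dko-labelled library, and Sox1ot had 34 and 11. Sox3 (ENSMUSG00000045179) lies on the minus strand at chrX:60891366-60893430 and overlaps no annotated gene. Sox4 (ENSMUSG00000076431) is at chr13:28948919-28953713, Sox11 (ENSMUSG00000063632) at chr12:27334264-27342574 and Sox17 (ENSMUSG00000025902) at chr1:4490931-4497354, all on the minus strand. Sox4 and Sox17 each overlap an annotated gene of the other strand, and reads of such partners can be told apart only if the counting used strand, which is not given in the sources used here. Zic5 (ENSMUSG00000041703, minus strand, chr14:122456795-122465677) and Zic2 (ENSMUSG00000061524, plus strand, chr14:122475435-122479852) are neighbours that point away from each other, with 9758 bases between their starts.

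Since SP5 and SP8 belong to the family of factors that bind GC boxes, the DNA upstream of the members was read where the RefSeq promoter table (GRCm38.p6) holds it, for 5 of the 8 genes. The bases upstream of both annotated starts are printed for Sox2, Sox11 and Zic5, which stand for the 3 patterns described below. Capitals mark the GC box GGGCGG or its complement CCGCCC.
Sox2, plus strand, chr3:34649745-34649994: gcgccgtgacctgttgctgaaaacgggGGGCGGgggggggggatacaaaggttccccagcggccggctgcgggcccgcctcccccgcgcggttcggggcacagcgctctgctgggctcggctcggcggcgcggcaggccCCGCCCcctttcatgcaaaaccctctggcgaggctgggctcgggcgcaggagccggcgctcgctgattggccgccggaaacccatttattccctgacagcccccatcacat
Sox11, minus strand, chr12:27342719-27342968: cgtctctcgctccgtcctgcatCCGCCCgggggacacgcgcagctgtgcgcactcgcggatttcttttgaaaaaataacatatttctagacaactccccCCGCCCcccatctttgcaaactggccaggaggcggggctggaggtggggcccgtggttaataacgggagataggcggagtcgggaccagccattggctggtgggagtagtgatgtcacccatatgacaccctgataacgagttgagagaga
Zic5, minus strand, chr14:122465678-122465908: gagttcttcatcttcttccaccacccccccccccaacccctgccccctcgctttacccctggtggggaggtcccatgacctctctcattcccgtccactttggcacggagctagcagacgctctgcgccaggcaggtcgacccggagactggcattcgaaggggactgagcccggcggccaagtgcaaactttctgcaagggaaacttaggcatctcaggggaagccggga
Sox2 and Sox11 each held 2 GC boxes, and Zic5, Sox4 and the 26 bases left for Sox1 held 0. Among 32851 promoters, 32.7% held a GC box in the 250 bases before the start. The SOX motif AACAAT, the TCF/LEF motif CTTTGAT and the T-box motif AGGTGT, searched on both strands, had no match in any of the 5 stretches, against 9.42%, 3.21% and 11.8% of all promoters. These are matches of letters, and binding was not measured.

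Levels over all cells came first. The SOXB1 genes were lower in the dko-labelled library, and Sox4, Sox11, Zic2 and Zic5 differed little. Sox1, a neural plate gene, stood at 5.23 CPM (4.78 to 5.70) in the WT-labelled library and 3.08 (2.74 to 3.45) in the dko-labelled library. The log2 ratio of the dko-labelled over the WT-labelled library was -0.76 (-0.97 to -0.55). Sox2, the pluripotency and neural factor, stood at 33.2 and 24.6 CPM, a log2 ratio of -0.43 (-0.51 to -0.35). Sox3, the X-linked member of the group, stood at 49.6 and 29.3 CPM, a log2 ratio of -0.76 (-0.83 to -0.69). The levels of these 3 genes were thus 1.70, 1.35 and 1.69 times as high in the WT-labelled library.

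Sox4 stood at 88.2 and 91.3 CPM (log2 ratio 0.05, 0.01 to 0.09) and Sox11 at 319.1 and 283.5 CPM (-0.17, -0.19 to -0.15). Zic2 stood at 118.1 and 124.8 CPM (0.08, 0.04 to 0.12) and Zic5 at 68.7 and 75.1 CPM (0.13, 0.08 to 0.18). These 4 genes lay within 1 SD of the median of all genes, whose log2 ratios had a median of -0.02 and an SD of 0.16. Sox17 had only 82 and 66 UMIs, or 0.844 and 0.676 CPM, and the interval of its log2 ratio of -0.32, from -0.81 to 0.16, includes 0. UMIs were counted per molecule and not per length, so levels are compared within a gene and not between genes.

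A gene was counted as higher or lower if its CPM differed by at least 1.3-fold, among genes with a mean of at least 10 CPM. Of the 8 members, 6 reached that mean, and Sox1 (4.16 CPM) and Sox17 (0.760 CPM) did not. Of the 6, Sox2 and Sox3 were lower in the dko-labelled library and 0 were higher. Over all 7607 genes at that level, 1.17% were lower and 0.999% higher. Only Sox3 passed in a comparison, described below, that gave each cluster of cells equal weight between the libraries. With the minimum mean lowered to 1 CPM, Sox1 was lower as well, so 3 of 7 members were lower and 0 higher, where 3.05% of genes were lower and 2.1% higher.

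The shares of cells with a molecule gave the same order of libraries. To keep depth from setting these shares, each cell with at least 4000 UMIs was thinned to 4000, which left 8449 and 10229 cells. A Sox3 UMI was then found in 17.3% of cells of the WT-labelled library and 10.8% of the dko-labelled library. For Sox2 the shares were 11.7% and 8.70%, and for Sox1 they were 1.93% and 1.09%. Without thinning, Sox3 was found in 35.3% and 21.2% of cells, Sox2 in 24.4% and 16.5% and Sox1 in 4.01% and 2.19%. Shares of Sox4 (28.7% and 29.1%) and Zic2 (35.1% and 37.1%) were close to each other in the thinned cells, as were those of Zic5 (22.9% and 24.1%). Sox11 was found in 67.3% and 63.5%, and Sox17 in 0.296% and 0.196%.

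Free RNA was read from barcodes with 10 to 100 UMIs, too few for a cell. Sox3 stood at 40.7 and 26.4 CPM in these barcodes and Sox2 at 22.5 and 15.0, also lower in the dko-labelled library. The intervals of Sox2 there overlapped, at 18.1 to 27.7 and 10.6 to 20.5 CPM. Sox11 (171.8 and 164.5 CPM), Zic2 (41.4 and 45.6 CPM) and Zic5 (39.2 and 40.1 CPM) were likewise below their levels in cells. Sox17 had 5 UMIs in the barcodes of each library, too few to set beside its level in cells.

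**Figure D1:**
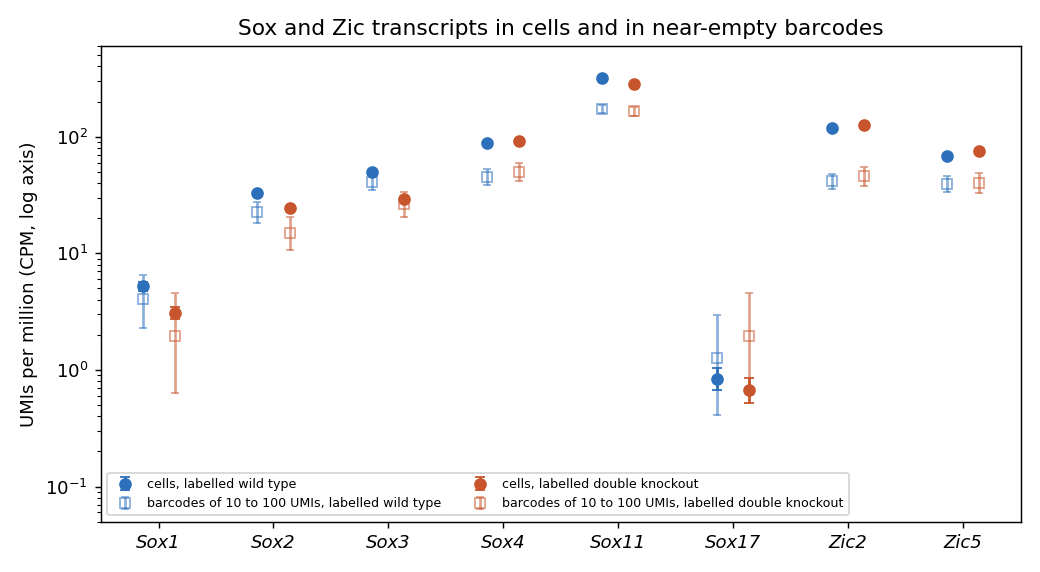
CPM (log axis) of the 8 genes in cells (filled circles) and in barcodes of 10 to 100 UMIs (open squares), in the WT-labelled library (blue) and the dko-labelled library (orange), with exact Poisson 95% intervals. Sox1, Sox2 and Sox3 are lower in cells of the dko-labelled library. In barcodes of 10 to 100 UMIs the intervals of Sox3 are separated, and those of Sox1 and Sox2 overlap. Sox4, Zic2 and Zic5 nearly coincide between the libraries.

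Cells were then classed by the streak and neural plate genes. In thinned cells, T was found in 1039 cells (12.3%) of the WT-labelled library and 1616 (15.8%) of the dko-labelled library. Eomes was found in 2055 (24.3%) and 4485 (43.8%), and Irx3 in 588 (6.96%) and 322 (3.15%). A cell without a UMI may still express the gene: T stood at 19.8 and 24.1 CPM in T-negative cells, against 169.5 and 188.0 CPM in T-positive cells, over their unthinned UMIs. Median depth was close between classes, at 11103 and 10639 UMIs in T-positive and T-negative cells of the WT-labelled library and 9189 and 8680 in the dko-labelled library. In the barcodes of 10 to 100 UMIs, T stood at 25.3 and 26.8 CPM and Eomes at 49.5 and 101.1 CPM, below their levels over all cells (38.8 and 50.7 CPM, and 91.2 and 185.6 CPM). Irx3 stood at 27.0 and 10.6 CPM there, above its 19.8 and 8.17 CPM over all cells, and 518 and 293 of the Irx3-positive cells had a single Irx3 UMI. How many of these carry only free Irx3 RNA was not tested, and values with at least 2 Irx3 UMIs are given below. The 3 classifications share cells, so they are given side by side.

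The SOXB1 genes were lower in T-positive than in T-negative cells. Sox2 stood at 19.0 against 35.3 CPM in the WT-labelled library, a log2 ratio of -0.90 (-1.10 to -0.71). In the dko-labelled library it stood at 17.0 against 26.2 CPM, or -0.62 (-0.81 to -0.44). Sox3 stood at 29.0 against 52.8 CPM (-0.86, -1.02 to -0.71) and at 18.6 against 31.5 CPM (-0.76, -0.94 to -0.59). Both genes were therefore lower with T in both libraries, with intervals of the ratio that lie below 0. With thinning to 2500 UMIs the ratio of Sox2 in the WT-labelled library was -0.46. Sox1 had log2 ratios of -2.03 (-2.86 to -1.37) and -1.64 (-2.47 to -0.97), from few UMIs. Sox4 (-0.19 and -0.10) and Sox11 (-0.11 and -0.07) were near level, and Zic2 (0.14 and 0.11) and Zic5 (0.18 and 0.10) leaned to the T-positive side. Of the 6 members at 10 CPM or more, Sox2 and Sox3 were lower by 1.3-fold in both libraries and 0 were higher. Of all genes, 0.855% were lower and 0.71% higher in the WT-labelled library, and 0.592% and 0.408% in the dko-labelled library.

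Eomes-positive cells gave the same division, and the Zic genes leaned further up. Sox2 stood at 21.9 against 37.1 CPM in the WT-labelled library and at 17.9 against 30.2 CPM in the dko-labelled library, log2 ratios of -0.76 and -0.76. Sox3 stood at 32.0 against 55.9 CPM (-0.81) and 23.6 against 34.2 CPM (-0.54). Sox1 had ratios of -2.56 (-3.20 to -2.03) and -1.95 (-2.43 to -1.52). Zic2 was higher in Eomes-positive cells, at 135.0 against 113.0 CPM (0.26, 0.20 to 0.32) and 136.2 against 116.1 CPM (0.23). Zic5 was higher too, at 81.4 against 64.8 CPM (0.33, 0.25 to 0.41) and 81.9 against 70.4 CPM (0.22). These differences of the Zic genes did not reach 1.3-fold, although Zic5 passed it when cells were classed by all their UMIs (0.41 and 0.38). Sox4 (-0.12 and -0.17) and Sox11 (-0.16 and -0.06) differed less. Sox2 and Sox3 were again the 2 of 6 members that were lower by 1.3-fold, and 0 were higher. Of all genes, 0.841% were lower and 0.71% higher in the WT-labelled library, and 0.552% and 0.381% in the dko-labelled library.

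Irx3-positive cells gave the reverse. Sox2 stood at 58.5 against 31.4 CPM in the WT-labelled library, a log2 ratio of 0.90 (0.74 to 1.05). Its levels in the dko-labelled library were 47.8 against 23.9 CPM, or 1.00 (0.74 to 1.25). Sox3 stood at 87.2 against 47.0 CPM (0.89) and 58.8 against 28.5 CPM (1.05). With at least 2 Irx3 UMIs asked for, the ratios were 1.47 and 1.10 for Sox2 and 1.04 and 1.98 for Sox3. These rest on few cells: 69 and 28 cells had 2 to 3 Irx3 UMIs, and 1 in each library had 4 or more. In the 28 cells of the dko-labelled library Sox2 had 12 UMIs (46.6 CPM, 24.1 to 81.4) and Sox3 had 28 (108.7 CPM, 72.3 to 157.2). Sox11 and Sox4 were also higher with Irx3: Sox11 had ratios of 0.40 and 0.34, and Sox4 of 0.25 and 0.38. Zic2 was lower, at 98.5 against 120.1 CPM (-0.28) and 102.5 against 125.9 CPM (-0.29), and Zic5 had ratios of -0.31 and -0.23. Sox1 stood at 10.9 against 4.8 CPM (1.19, 0.80 to 1.55) and 12.0 against 2.8 CPM (2.14, 1.57 to 2.64). Under the same demand the Sox1 ratio in the WT-labelled library was -0.11, from 3 Sox1 UMIs. Of the 6 members, 3 were higher by 1.3-fold in each library (Sox2, Sox3 and Sox11, then Sox2, Sox3 and Sox4), against 1.8% and 4.26% of all genes. With thinning to 2500 UMIs, Sox11 (0.31) and Sox4 (0.34) no longer passed in the library where each had, and the Sox1 ratios were 0.34 and 1.22. Lower by 1.3-fold were 0 members in each, against 2.25% and 3.55% of all genes.

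**Figure D2:**
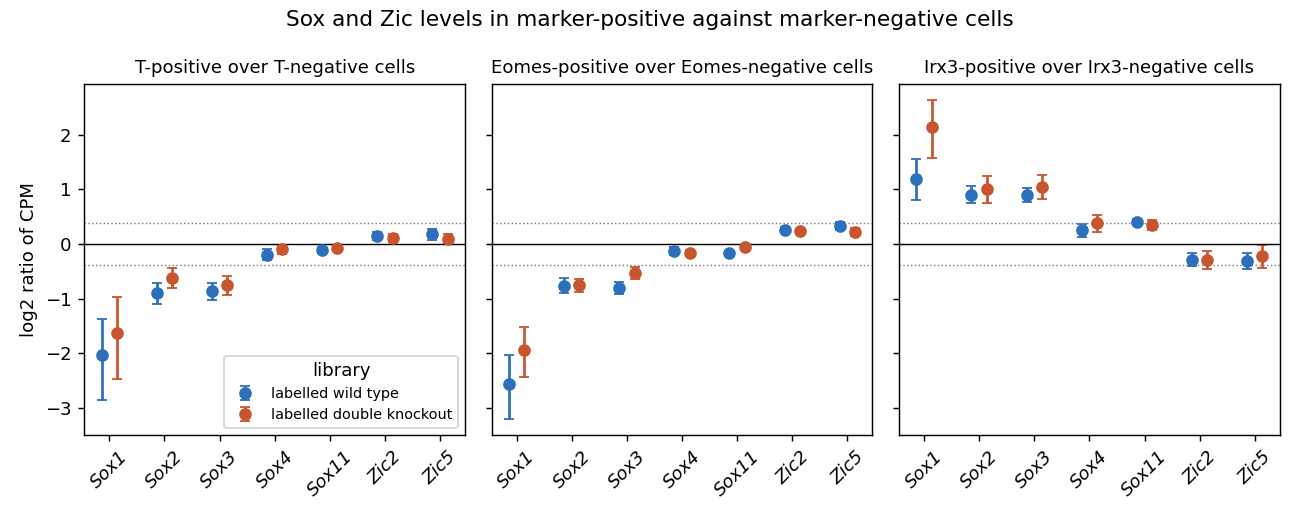
Log2 ratio of CPM in marker-positive over marker-negative cells for T, Eomes and Irx3, for 7 genes in the WT-labelled library (blue) and the dko-labelled library (orange). Bars are exact 95% intervals and dotted lines mark 1.3-fold. Sox1, Sox2 and Sox3 lie below 0 for T and Eomes and above 0 for Irx3, and Zic2 and Zic5 lie on the other side of 0 in each panel.

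The 3 markers were then combined into classes that share no cell. Sox2 in the WT-labelled library stood at 14.6 CPM (11.3 to 18.6) in 372 cells with T and Eomes, 21.1 with T alone, 22.7 with Eomes alone, 36.8 with none of the 3, 40.8 with Irx3 and a T-box marker, and 62.3 (55.8 to 69.3) with Irx3 alone. In the dko-labelled library the levels were 14.5, 19.5, 18.3, 30.8, 40.6 and 51.8 CPM. Many neighbours in these orders had overlapping intervals. For Sox2, only the step up to cells with none of the 3 was separated from the level before it in both libraries, and the step up to Irx3 alone in the WT-labelled library. For Sox3 the levels in the same classes were 21.2, 32.5, 32.9, 55.4, 63.8 and 92.2 CPM, and then 16.8, 21.2, 24.9, 34.7, 40.6 and 68.9 CPM. Sox3 was thus lowest with T and Eomes together and highest with Irx3 alone in both libraries, though its intervals with T and Eomes and with T alone overlapped in the dko-labelled library. Zic2 ran the other way, from 137.4 and 140.7 CPM with T and Eomes to 95.3 and 90.8 CPM with Irx3 alone. Zic5 ran from 83.8 and 85.0 CPM to 53.6 and 61.4 CPM between those classes. Sox11 stood at 287.8 and 276.7 CPM with T and Eomes and 415.6 and 382.8 CPM with Irx3 alone.

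**Figure D3:**
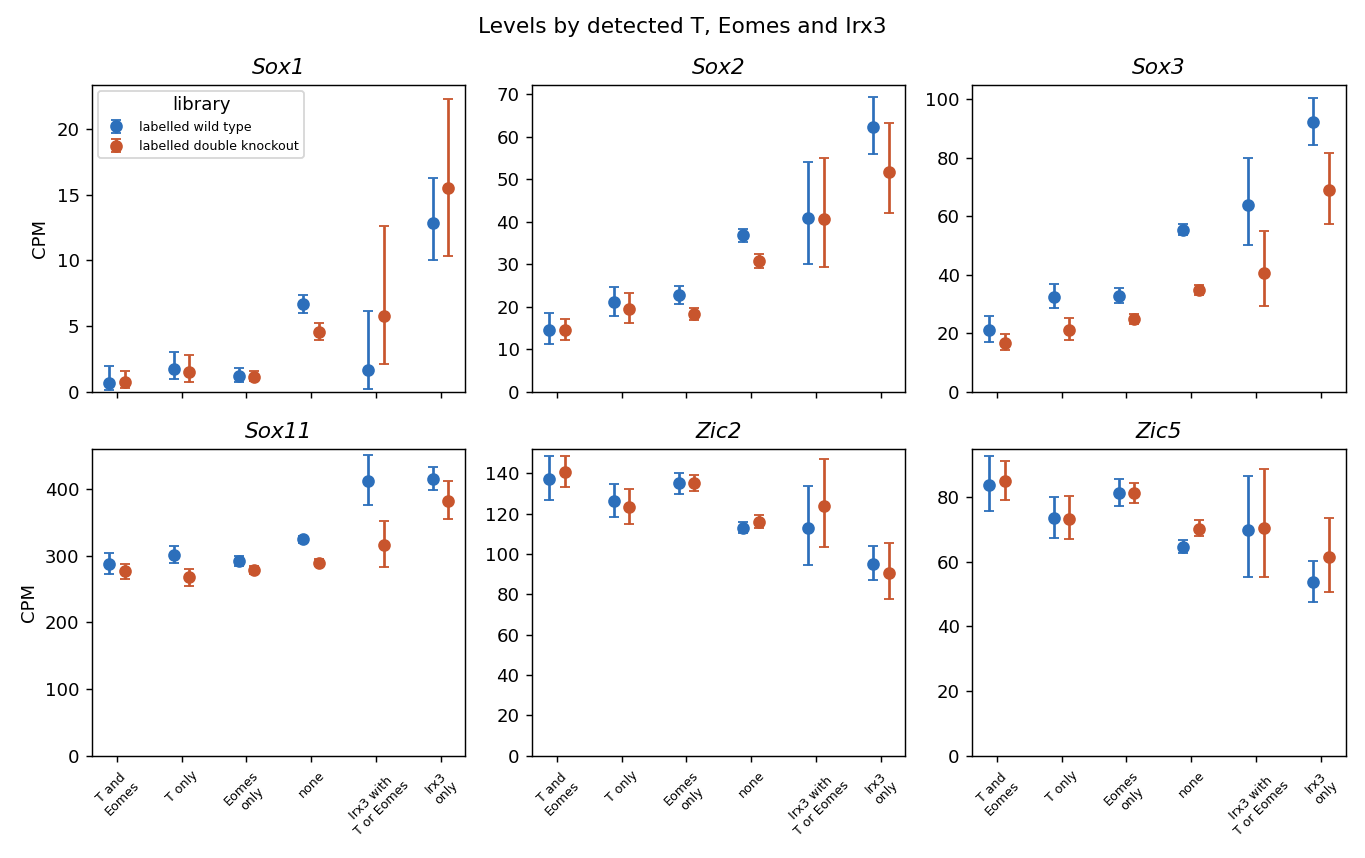
CPM of 6 genes in classes of cells that share no cell, ordered from cells with T and Eomes to cells with Irx3 alone, in the WT-labelled library (blue) and the dko-labelled library (orange), with exact Poisson 95% intervals. Sox2 and Sox3 are lowest at the left and highest at the right, and Zic2 and Zic5 are lowest at the right.

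The number of Eomes molecules in a thinned cell graded these levels. Sox3 in the WT-labelled library stood at 55.9 CPM in cells with 0 Eomes UMIs, 34.3 with 1, 26.6 with 2 to 3 and 19.6 (9.80 to 35.1) in the 43 cells with 4 or more. In the dko-labelled library it stood at 34.2, 25.9, 21.5 and 13.1 CPM, the last over 280 cells. Sox2 in the WT-labelled library stood at 37.1, 24.3, 15.7 and 17.8 CPM, the last with an interval of 8.56 to 32.8. Its levels in the dko-labelled library were 30.2, 19.4, 16.5 and 10.8 CPM. Zic2 was higher at each of the same steps, at 113.0, 132.4, 140.7 and 148.1 CPM and at 116.1, 130.7, 142.9 and 149.2 CPM. Zic5 stood at 64.8, 79.0, 85.5 and 110.6 CPM and at 70.4, 80.0, 84.8 and 83.0 CPM. By T molecules Zic2 had no such order in the WT-labelled library, at 117.0, 130.5, 124.1 and 116.4 CPM, the last in 16 cells. The outer steps of Sox3 and of Zic2 were separated by their intervals in the dko-labelled library and in the WT-labelled library.

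Pairs of genes in single thinned cells were described by the number of cells with both, over the number that their separate shares would give. Sox2 and Sox3 were found together in 223 cells of the WT-labelled library, 1.31 times (1.14 to 1.49) the product of the shares, and in 146 cells of the dko-labelled library, 1.53 times (1.29 to 1.79). Sox1 and Sox2 gave 2.32 and 2.26 times, from 44 and 22 cells. The neighbours Zic2 and Zic5 gave 1.15 and 1.13 times, and Sox4 and Sox11 1.05 and 1.06 times. Sox2 was found with T 0.51 and 0.64 times as often as the product, and with Irx3 1.88 and 1.43 times. Sox2 with Zic2 gave 0.90 and 0.88 times. Cells of a library share depth and free RNA, and no p-value was taken.

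The difference between the libraries was then read within the classes. Sox3 was lower in the dko-labelled library in each class, with log2 ratios of -0.64 (-0.87 to -0.41) in T-positive cells, -0.44 (-0.57 to -0.30) in Eomes-positive cells, -0.56 (-0.82 to -0.32) in Irx3-positive cells and -0.68 (-0.76 to -0.59) in cells with none of the 3. It was the only 1 of the 6 members past 1.3-fold in each class, where 2.73%, 1.05%, 5.59% and 0.999% of all genes were lower. No member was higher by 1.3-fold in any of the 4 classes, where 1.92%, 0.868%, 4.59% and 0.946% of all genes were higher. Sox2 differed less within the classes than over all cells, at -0.15 (-0.41 to 0.10), -0.29 (-0.45 to -0.13), -0.29 (-0.58 to -0.01) and -0.26 (-0.36 to -0.16). Each of these Sox2 intervals overlaps that over all cells, -0.51 to -0.35. Sox1 differed by -0.54 (-0.80 to -0.30) in cells with none of the 3. Its ratio was -0.36 (-1.42 to 0.70) in T-positive, 0.08 (-0.61 to 0.82) in Eomes-positive and 0.16 (-0.48 to 0.75) in Irx3-positive cells. These intervals include 0 and overlap that of cells with none of the 3. Zic2 kept between 0.01 and 0.06, and Sox11 between -0.21 and -0.08.

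Clusters of cells gave a further view, since the 8 genes were left out of the clustering. Cluster 1 was primitive streak-like, with Fgf8, Gsc, Mixl1 and Eomes among its leading genes (1755 cells of the WT-labelled library and 5075 of the dko-labelled library). Cluster 2, led by Irx3 (4480 and 3911 cells), and cluster 5, led by Cdx2 and holding T (1560 and 565 cells), got no name from the markers. The primitive streak markers summed to 614.9 and 708.1 CPM in cluster 1, against 378.7 and 715.5 CPM in cluster 5. In the dko-labelled library this sum therefore does not set cluster 1 apart from cluster 5. Cluster 3 was naive pluripotent-like (305 and 366 cells), cluster 4 neural-like (230 and 226 cells) and cluster 7 extraembryonic endoderm-like (16 and 16 cells). The name of cluster 3 is not exclusive. It had 5 of 9 naive, 3 of 7 primed epiblast and 3 of 5 germ cell markers at 1.5-fold over other cells. Its primed epiblast markers summed to 1509.8 and 1628.0 CPM, the highest of all clusters, against 1263.1 and 1277.4 CPM in cluster 1. A stress-led and a shallow cluster stayed unnamed. Since the clusters were led by genes that differ between the libraries, their sizes are not compared.

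The level of Sox1 was highest in the neural-like cluster, at 84.6 CPM (72.6 to 97.9) and 52.6 CPM (42.5 to 64.3), against 4.4 and 4.6 CPM in the Irx3-led cluster and 0.6 and 0.6 CPM in the streak-like cluster. The neural-like cluster gave 35.2% and 31.2% of all Sox1 UMIs, and the larger Irx3-led cluster 44.7% and 54.5%. After thinning, 21.0% and 15.9% of its cells had a Sox1 UMI, against 1 of 303 (0.33%) and 0 of 361 naive-like cells, the latter with an exact interval that reaches 1.02%. Median depth was 8512 and 7463.5 UMIs in neural-like and 11174 and 9267.5 in naive-like cells. Sox2 was high in naive-like cells, at 76.9 and 77.5 CPM, and in neural-like cells, at 69.0 and 58.2 CPM. It was low in the streak-like cluster, at 12.1 and 12.0 CPM. Sox3 shared the low streak-like level (24.8 and 20.6 CPM) and the high neural-like level (80.3 and 50.9 CPM). The Cdx2-led cluster, which holds T, did not share the low level. There Sox2 stood at 34.7 and 27.2 CPM and Sox3 at 53.0 and 30.5 CPM, near their levels over all cells. In naive-like cells Sox3 stood at 18.7 (14.5 to 23.8) and 10.3 CPM (7.26 to 14.2), its lowest levels among clusters 1 to 5. Sox2 and Sox3 therefore parted in the naive-like cells. The intervals of Sox2 in naive-like and neural-like cells overlapped, as did those of Sox3 in naive-like and streak-like cells of the WT-labelled library.

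Sox4 and Sox11 were also highest in the neural-like cluster, Sox4 at 292.5 and 262.3 CPM and Sox11 at 601.5 and 501.0 CPM. In the other clusters 1 to 5, Sox4 lay between 74.6 and 99.0 CPM. Of clusters 1 to 5, Sox11 was lowest in naive-like cells, at 177.4 and 161.2 CPM. The Zic genes had the reverse order of the neural-like and streak-like clusters. Zic2 stood at 140.2 and 136.3 CPM in streak-like, 136.6 and 138.1 CPM in Cdx2-led and 67.6 and 63.7 CPM in neural-like cells. Zic5 stood at 83.0 and 84.4 CPM in streak-like and 19.4 and 24.0 CPM in neural-like cells.

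Sox17 came mainly from the small extraembryonic endoderm-like cluster. There it stood at 231.0 CPM (167.8 to 310.1) and 239.7 CPM (170.4 to 327.7), and in no other cluster above 3.4 CPM. The 16 cells of each library gave 44 of its 82 UMIs (53.7%) and 39 of its 66 UMIs (59.1%). Since Sox17 marks definitive endoderm as well, other markers of both kinds of endoderm were read in these cells. The 10 extraembryonic endoderm markers, none of them at 0, summed to 11675.6 and 11867.5 CPM, against 23.9 to 136 CPM in the other clusters. The 6 definitive endoderm markers summed to 115.5 and 196.7 CPM, with Foxa2 at 94.5 and 55.3, Hhex at 15.7 and 18.4 and Trh at 5.25 and 122.9 CPM. In the other clusters that sum ran from 79.4 to 990 CPM, so it does not set these cells apart. Trh alone was found in 56.8% and 74.9% of all thinned cells. Foxa2 stood at 2.28 and 6.81 CPM over all cells. Cxcr4, Cer1 and Foxa1 were at 0, but each was at 1.42 CPM or less over all cells, too low for a 0 in 16 cells to be read. Sox2 had 0 UMIs there in both libraries, with exact intervals that reach 19.4 and 22.7 CPM.

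**Figure D4:**
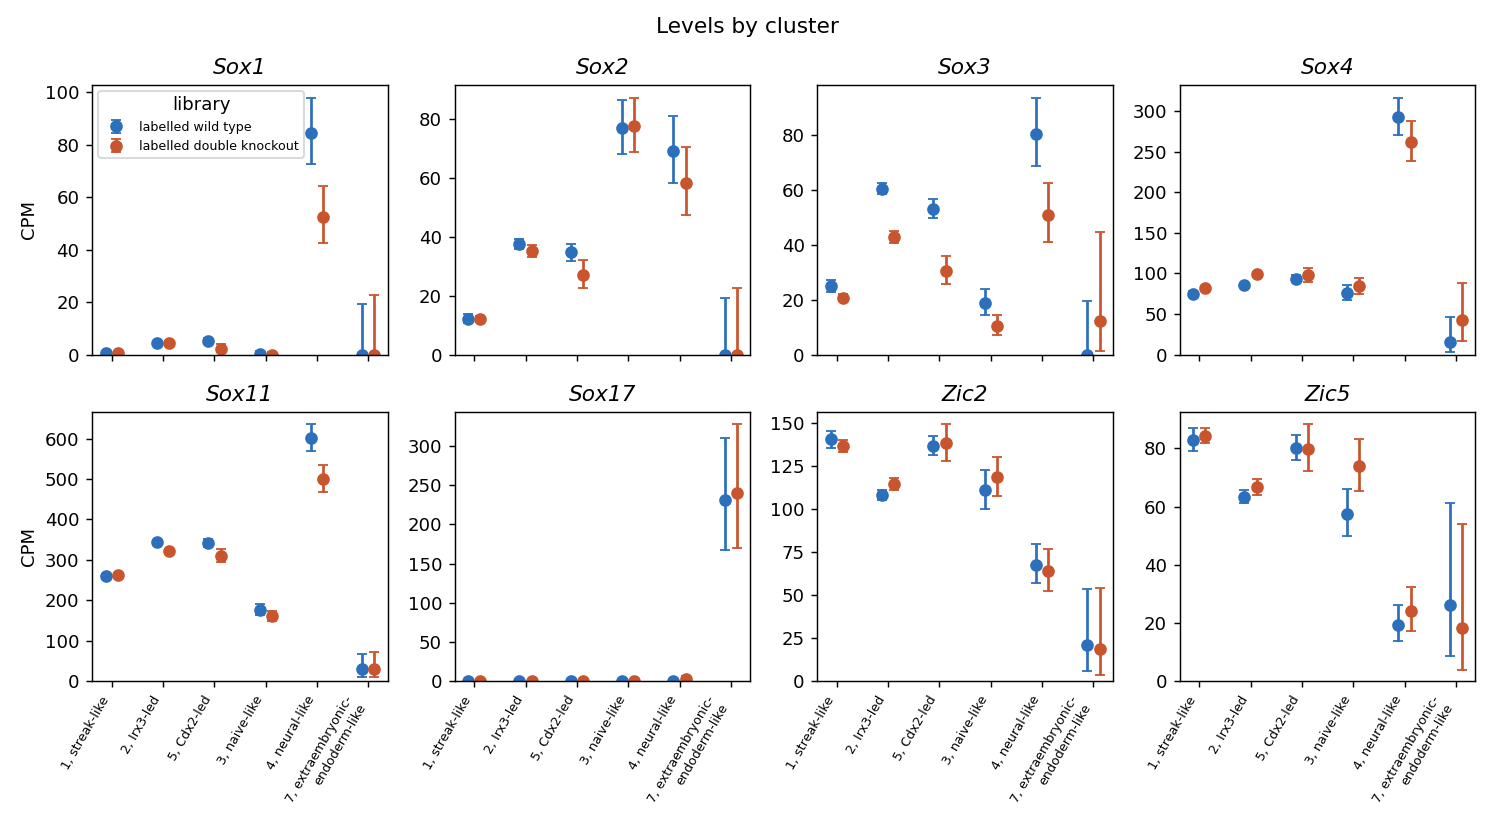
CPM of the 8 genes in 6 clusters, in the WT-labelled library (blue) and the dko-labelled library (orange), with exact Poisson 95% intervals and an axis of its own for each gene. Sox1, Sox4 and Sox11 are highest in the neural-like cluster, Sox2 in the naive-like and neural-like clusters, Sox17 in the extraembryonic endoderm-like cluster, and Zic2 and Zic5 in the streak-like and Cdx2-led clusters.

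Within clusters, Sox3 was lower in the dko-labelled library in each of clusters 1 to 5. Its log2 ratios were -0.27 (-0.42 to -0.11) in streak-like, -0.50 (-0.59 to -0.41) in Irx3-led, -0.85 (-1.48 to -0.26) in naive-like, -0.65 (-1.04 to -0.28) in neural-like and -0.79 (-1.06 to -0.54) in Cdx2-led cells. All 5 intervals lay below 0. Sox2 had ratios of -0.01 (-0.23 to 0.20), -0.10 (-0.20 to 0.01), 0.01 (-0.23 to 0.26), -0.24 (-0.62 to 0.13) and -0.35 (-0.64 to -0.07) in the same order, and only the last interval lay below 0. Sox1 differed by -0.68 (-1.06 to -0.32) in neural-like, by -1.21 (-2.38 to -0.32) in Cdx2-led, by 0.07 (-0.23 to 0.36) in Irx3-led and by -0.01 (-0.95 to 1.08) in streak-like cells. With every cluster weighted equally between the libraries, by the mean of its shares of their UMIs, the log2 ratio was -0.49 for Sox3, -0.10 for Sox2 and -0.32 for Sox1, and Sox11 stood at -0.07. This weighting was chosen after the data were seen. The clusters rest on genes that differ between the libraries, so shares of clusters and levels within them cannot be fully told apart.

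**Figure D5:**
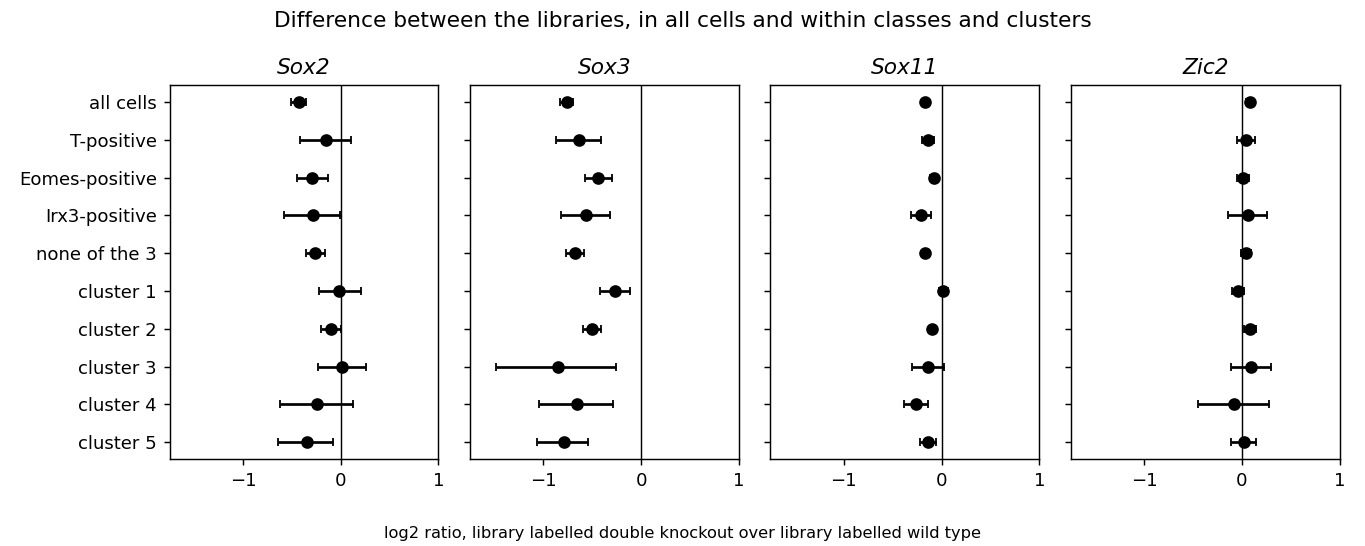
Log2 ratio of CPM in the dko-labelled library over the WT-labelled library for Sox2, Sox3, Sox11 and Zic2, in all cells, in marker classes and in clusters 1 (streak-like), 2 (Irx3-led), 3 (naive-like), 4 (neural-like) and 5 (Cdx2-led), with exact 95% intervals. Sox3 lies below 0 throughout, Sox2 moves toward 0 within clusters 1 to 3, and Zic2 stays near 0.

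Relatives and partners of the members were read from lists. Of 13 other Sox genes, Sox12 and Sox13 reached 10 CPM, with log2 ratios between the libraries of -0.07 and -0.05, and 0 passed 1.3-fold. Of 8 POU partners, 3 were measured at that level and 0 passed. Pou5f1, which encodes OCT4, stood at 656.2 and 679.0 CPM (0.05). Pou3f1, a POU gene of primed epiblast and neural plate, was lower in T-positive cells, at -0.54 and -0.52.

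Of 15 genes known as OCT4 and SOX2 targets, 10 reached 10 CPM, with a median log2 ratio of 0.11 between the libraries. The Nodal co-receptor gene Tdgf1 (0.69), the Nodal antagonist gene Lefty2 (0.40) and the chromatin factor gene Utf1 (0.38) were higher in the dko-labelled library, and 0 were lower, where 0.999% and 1.17% of all genes were higher and lower. In Irx3-positive cells 7 of the 10 were lower in the WT-labelled library, against 2.25% of all genes. In the dko-labelled library 4 were lower and 1 higher, against 3.55% and 4.26% of all genes. Tdgf1 stood at -2.24 and -1.53. So Sox2 and most of these listed targets lay on opposite sides of Irx3 in the WT-labelled library. Of 18 neural plate genes, 7 reached 10 CPM, and 3 were lower in the dko-labelled library (1.17% of all genes), namely Irx5 (-1.21), Foxb1 (-0.77) and Gbx2 (-0.42). The median of the 7 was -0.26, and 3 and 5 of them were higher in Irx3-positive cells of the 2 libraries (1.8% and 4.26% of all genes), as Sox2 and Sox3 were. Of 15 definitive endoderm genes, 5 reached 10 CPM, with a median of 0.26. The organizer gene Gsc (1.18) and Trh (0.76), which encodes a hormone precursor, were higher in the dko-labelled library (0.999% of all genes), and 0 were lower. Gsc was also a leading gene of the streak-like cluster, and Trh was found in 56.8% and 74.9% of all thinned cells. Listed genes below 10 CPM went both ways, as with Foxa2 (1.57) and Hhex (-0.26). These values therefore do not single out definitive endoderm.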

How the data were processed

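Single-cell 3′ libraries were prepared with 10x Genomics reagents, per the labels' protocols. The authors deposited raw UMI counts, without normalization, for all 6794880 possible barcodes. The labels' protocols name Cell Ranger with default parameters, and the submitters' processing notes name STARsolo, STAR 2.7.9a, Seurat 5.1.0 and mm10. Which of these wrote the counts is not given in the sources used here. The labels count 9238 and 11190 cells after removal of barcodes with extremely few UMIs, with medians of 5333 and 5398 genes. At least 2500 UMIs were found in 8772 and 10613 barcodes, of which 1 and 0 were removed for under 1000 genes and 64 and 26 for over 10% mitochondrial UMIs. The remaining cells had medians of 3275 and 2884 genes.

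Counts were summed per library, class or cluster and scaled to the total as CPM. Log2 ratios used a pseudocount of 0.5 UMI. Intervals are exact Poisson for sums, exact conditional for ratios and Clopper-Pearson for shares, at 95%. Scripts were tested on simulated data. Doublets were kept, as the rule for cells sets no doublet filter, and an alternative removed the highest scores (606 and 897 cells). Clusters came from scanpy 1.11.5 (2000 variable genes leaving out the members, the targeted genes and ribosomal, mitochondrial, Y-linked and cell cycle genes, 30 components, 15 neighbours, Leiden resolution 0.5). Naming a cluster took 1 or more class markers within its top 10 genes and 3 or more at 1.5-fold over other cells, a scoring set after clusters of these data had been seen.

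The members, T, Eomes, Irx3, Sp5 and Sp8 are always named, and up to 3 genes of each list by size of the ratio between the libraries. Pou3f1 was also named for its ratio by T. Members and lists were chosen with earlier results of these data known. edgeR 4.0.16 served only for TMM scaling. All 8 gene identifiers matched the annotation. Some results that the rule for names would give are not reported here.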

Additional observations from a re-analysis of the deposited data

How the results depend on the processing

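Of 88 ratios between the libraries, recomputed under other filters, scalings and cell sets, 79 moved by less than their interval, as did 278 of 336 ratios between marker-positive and marker-negative cells, and 131 of 138 counts of members kept their value within 1.5 times. With clusters weighted equally between the libraries, 1 member was lower in the dko-labelled library (2 over all cells), since Sox2 no longer passed. With at least 2 Eomes UMIs, or with classes from all UMIs, 1 member (Zic5, 0.43 and 0.41) was higher in Eomes-positive cells of the WT-labelled library, and with classes from all UMIs 1 (Zic5, 0.38) in the dko-labelled library. With at least 2 Irx3 UMIs, 1 member (Zic5, -0.48 and -0.56) was lower in Irx3-positive cells of each library, and 1 with thinned UMIs only in the WT-labelled library (-0.43). Sox1 in Irx3-positive cells of the WT-labelled library turned to -0.11 with at least 2 Irx3 UMIs. Sox17 in Eomes-positive cells of that library turned from -0.51 to 0.24 with at least 2 Eomes UMIs, 0.36 with thinning to 2500 UMIs, 0.42 without cells of low chromosome 6 or 11 expression and 1.00 without the naive-like, neural-like and extraembryonic endoderm-like clusters. In the dko-labelled library it turned from -1.45 to 0.60 without those clusters. The setting without those clusters and the equal shares were added after the data were seen. The cause of these changes was not tested. Under TMM scaling the median over genes was 0.0061, against -0.02, and Sox11 stood at -0.14. Shares of cells move with depth, as the thinned and unthinned values show. No paired analysis was possible because each genotype has 1 library.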

Other observations

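For each member with a mean of at least 10 CPM, the genes with the most similar levels were found by Pearson correlation of log2(CPM + 1) over 12 points, 6 clusters in each of the 2 libraries, among 7606 genes. The points share libraries and clusters, so the values are descriptions. They include the shallow cluster, where Sox11 stood at 49.4 and 44.5 CPM and Zic2 at 48.6 and 62.0 CPM, below clusters 1 to 5. How far that cluster sets the correlations was not tested. Sox11 was most like Prtg, E130308A19Rik and Cxadr (1.00, 0.99 and 0.99), and Sox4 most like Rhob, Prkar2a and Sox13 (0.99, 0.98 and 0.98). Sox3 was most like Ilf2, Irx2 and Ptn (each 0.91), and Sox2 most like Palld, Zfp710 and Myo1e (0.89, 0.87 and 0.87). Fst and Manf were among the genes most like Zic2 (0.99 and 0.98), and Zic5 was most like Naf1, Itga1 and Slc7a3 (0.98, 0.98 and 0.97). Among the members, Zic2 with Zic5 gave 0.97 and Sox4 with Sox11 gave 0.90. Sox2 with Sox3, of 1 SOX group, gave 0.19.

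Outside the naive-like, neural-like and extraembryonic endoderm-like clusters, a setting chosen after the data were seen, Sox17 had 14 UMIs in Eomes-positive and 20 in Eomes-negative cells of the WT-labelled library. The log2 ratio of CPM was 1.00 (-0.12 to 2.04). In the dko-labelled library it had 12 and 9 UMIs, a ratio of 0.60 (-0.75 to 2.04). Both intervals include 0.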
